A study of Oryctolagus cuniculus with 36 samples.

Results

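The genes for burning fatty acids and making ketone bodies in the liver were followed in rabbits by RNA sequencing. A set of 8 genes was chosen by symbol: the regulator PPARA, the carnitine shuttle enzymes CPT1A and CPT2, the mitochondrial oxidation enzymes ACADVL, ACADM and HADHA, the peroxisomal enzyme EHHADH and the ketone body enzyme BDH1. Of these, 7 were matched among the 23394 genes of the table, and all 7 passed the filter on low counts. CPT1A is not analysed here.

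Between meals the liver takes up fatty acids and oxidises them. PPARA, a nuclear receptor that fatty acids activate, switches on many genes of this programme. Long chains enter mitochondria bound to carnitine and are shortened there in repeated cycles, very long and branched chains are shortened first in peroxisomes, and the acetyl-CoA that results is turned into ketone bodies for other organs.

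The series concerns gene correction with CRISPR/Cas9 of newborn rabbits with type I hereditary tyrosinemia, a disease in which FAH, the last enzyme of tyrosine breakdown, is lost. The libraries came from the livers of FA, FK and WT rabbits, with 12 libraries in each group, placed by their titles in 3 sets of 4 per group. The labels do not spell out FA and FK, and they give no allele, age, sex or treatment by group. All libraries, WT included, carry the same disease label and the same protocol, in which livers were treated with trypsin before RNA was taken. The 4 libraries of a set were summed, so n = 3 sets per group, and no label says that sets are separate animals. The p-values thus measure how far these sets lay apart, and that spread could be technical. A level is given as CPM, the count per 1 M counts after scaling between sets. Changes are fitted log2 differences with their standard error (SE), and a gene is called, and said to have risen or fallen, at an adjusted p under 0.05 in edgeR's quasi-likelihood test over 14939 genes.

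Library totals were 15.1 to 22.5 M counts in FA, 11.7 to 16.1 M in FK and 14.2 to 18.7 M in WT. FAH averaged 23.3 ± 3.3 CPM in FA, 14.3 ± 2.3 CPM in FK and 242 ± 27 CPM in WT (SD, n = 3 each), and its log2 change was -3.37 for FA over WT (adjusted p = 0.00183) and -4.08 for FK over WT (adjusted p = 0.000466). The FK sets were unlike each other. Over genes, Pearson's r of log2 CPM was 0.974 to 0.980 between FK set 3 and the FA sets, and 0.883 and 0.850 between FK set 3 and FK sets 1 and 2. Several summed markers set FK sets 1 and 2 apart: 874 and 2264 CPM of 12 erythroid genes (124 to 277 CPM in FA, 172 CPM in FK set 3, 66.8 to 142 CPM in WT), 1197 and 2059 CPM of 8 neutrophil genes (at most 40.3 CPM in any other set), and 308 and 720 CPM of 10 cell division genes (at most 20.6 CPM in any other set). The sum of 7 bile duct markers was also highest there, at 28.1 and 49.4 CPM (5.69 to 19.1 CPM in the other sets). Of the 6 tested, 3 had positive and 3 negative fitted changes in FK over WT. The sum of 7 B and plasma cell markers was lowest there, at 3.68 and 5.73 CPM (28.7 to 37.9 CPM in FA, 29.3 CPM in FK set 3, 84.5 to 98.4 CPM in WT). Their median deviation from the WT mean of log2(CPM + 1) was not lowest there. It was -0.42, -0.29 and -0.83 in FK sets 1 to 3 and -0.18, -0.45 and -0.77 in FA. Of the 12 erythroid genes, 2 had positive and 10 negative fitted changes in FA over WT, though the FA sums were not lower. The median deviation of these genes was -0.38, -0.35 and -0.57 in FA, and 3.46, 4.99 and -0.57 in FK sets 1 to 3. The 14 hepatocyte markers were all detected and summed to 226717 to 289067 CPM in FA, 157772 to 249493 CPM in FK and 210213 to 277499 CPM in WT. Of 8 macrophage markers, CLEC4F was below the filter on low counts, at 0 in FA and at most 0.863 CPM in any set. The sum of the 8 was 233 to 335 CPM in FA, 360 to 654 CPM in FK and 452 to 609 CPM in WT. Of the 7 tested, 4 had positive and 3 negative fitted changes in FK over WT (-0.45 to 6.5). In FA over WT 1 was positive and 6 were negative. In bulk liver, fewer cells of a type and less RNA per cell cannot be told apart. The part of these differences in the results was not tested, and results are given with and without the FK sets concerned.

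**Figure D1:**
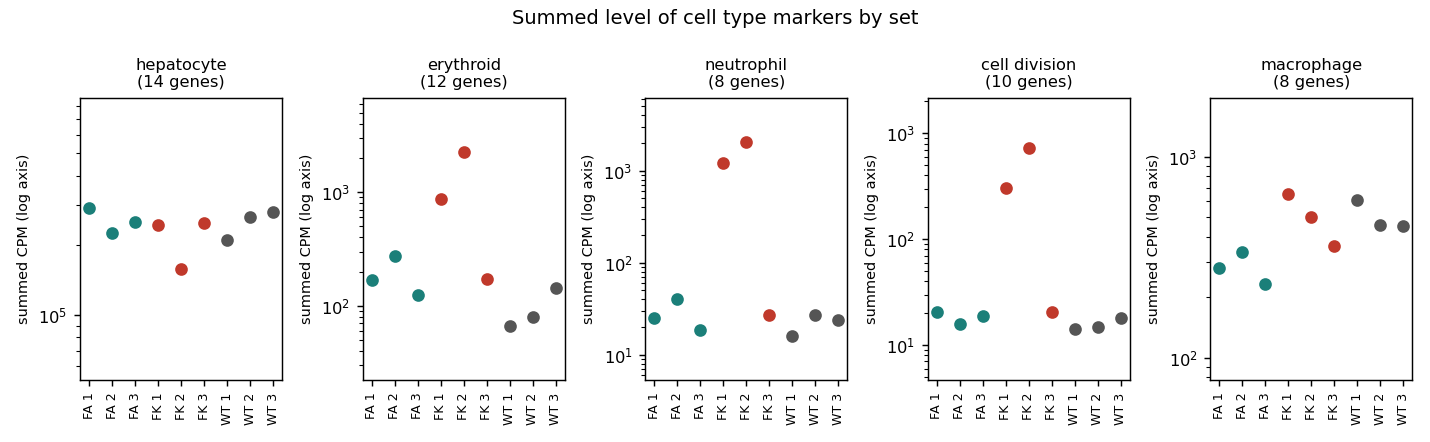
Summed CPM (log axis) of hepatocyte, erythroid, neutrophil, cell division and macrophage markers in each of the 9 sets, FA, FK and WT from left to right. The erythroid, neutrophil and cell division sums of FK sets 1 and 2 stand above all other sets, and FK set 3 lies near the FA and WT sets.

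In FK over WT, 1 of the 7 genes passed the test: EHHADH fell. The share called lower among all genes tested was 1.73%, and 4.77% were called in either direction. By unadjusted p under 0.05, 3 of the 7 genes passed, as did 26.9% of all genes tested. DESeq2 called 2 of the 7 (17.5% of the genes it tested) and limma-voom with the set as a random block called 4 (19.2%). DESeq2 took the summed sets, whereas limma-voom took the 36 libraries singly. In FA over WT and in FA over FK edgeR called 0 of the 7. The fitted changes of the members had both signs. The median log2 change of the 7 was -0.21 in FK over WT, -0.15 in FA over WT and 0.06 in FA over FK, where the medians over all genes tested were 0.05, 0.00 and -0.02. When FK set 3 was left out, 6 of the 7 were called in FK over WT: PPARA, ACADM and EHHADH lower, and CPT2, HADHA and BDH1 higher. In that fit 34.9% of all genes were called (18.7% higher and 16.2% lower), so such a call was common.

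**Figure D2:**
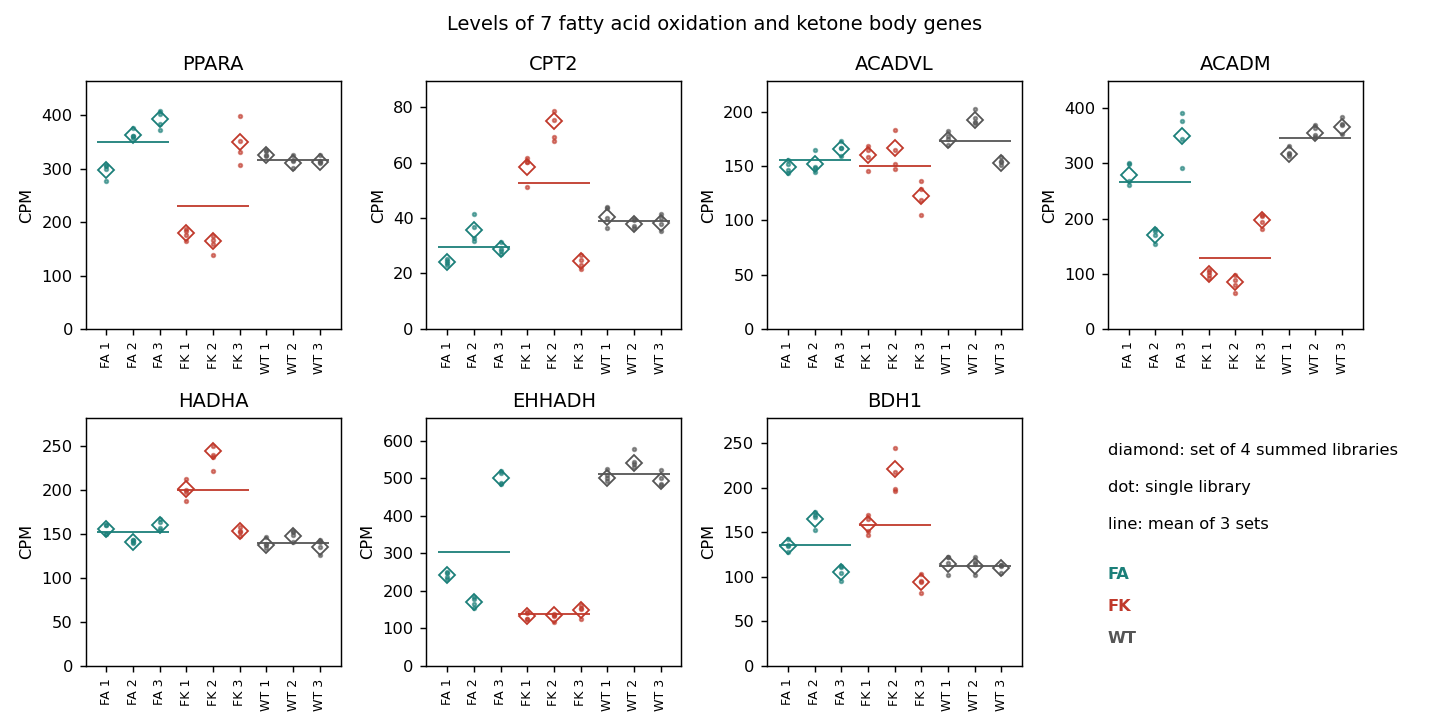
CPM (linear axes from 0) of PPARA, CPT2, ACADVL, ACADM, HADHA, EHHADH and BDH1 in the 9 sets, FA, FK and WT from left to right. Diamonds are sets, dots are the 4 libraries of a set and lines are group means. EHHADH is low in all 3 FK sets, while PPARA and CPT2 in FK set 3 lie apart from FK sets 1 and 2.

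EHHADH codes for the peroxisomal bifunctional enzyme, which hydrates and then dehydrogenates shortened chains and is a classic target of PPARA in rodents. Its level was 242, 169 and 502 CPM in FA, 133, 136 and 148 CPM in FK, and 501, 541 and 492 CPM in WT. All FK sets lay below all WT sets, and FA sets 1 and 2 lay between, whereas FA set 3 was at the WT level. The log2 change in FK over WT was -1.88 (SE 0.38, 95% interval -2.75 to -1.01), a level 3.68-fold lower, with adjusted p = 0.0408. In ACADM and HADHA, FK set 3 was on the same side of WT as FK sets 1 and 2, but lay between them and WT. In EHHADH it was close to FK sets 1 and 2. The change was -1.95 without FK set 3 (adjusted p = 0.00790) and -1.82 without FK sets 1 and 2 (adjusted p = 0.223). The size hardly varied when single sets were left out (-1.95 to -1.85), but the call ended without WT set 1, 2 or 3 (adjusted p = 0.153, 0.141 and 0.118), without FA set 1 (0.0711) and without FK set 1 or 2 (0.125 and 0.100). Over all 20 alternative settings the adjusted p ran from 5.42e-11 to 0.223.

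EHHADH in FA over WT had a log2 change of -0.75 (SE 0.37, interval -1.60 to 0.10, adjusted p = 0.533), and in FA over FK of 1.13 (SE 0.38, interval 0.28 to 1.99, adjusted p = 0.143). The lowest FA set, at 169 CPM, was above the highest FK set, at 148 CPM. Within the 3 FA sets the level differed by more than the 4 libraries of any set did: libraries ran from 153 to 182 CPM in FA set 2 and from 485 to 521 CPM in FA set 3.

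Its neighbours in the peroxisome all had negative fitted changes in FK over WT. The list held 16 genes, EHHADH included, of which 13 were tested. The median log2 change of the 13 was -1.16 (0.05 over all genes tested). All FK sets lay below all WT sets for 9 of 13 (13.4% of all genes tested). An unadjusted p under 0.05 was found for 9 of 13 (26.9% of all genes). EHHADH alone was called, where 1.73% of all genes tested were called lower. The list and its direction were known from earlier results of these data. ACAA1, the peroxisomal thiolase of the last step, had 919.6, 788 and 728 CPM in FA, 129, 231 and 518 CPM in FK, and 766, 770.1 and 857 CPM in WT. HSD17B4, the second bifunctional enzyme, had 949, 833 and 1046 CPM in FA, 209, 268 and 766 CPM in FK, and 988, 1303 and 827 CPM in WT. In both genes the low values were those of FK sets 1 and 2, the sets with high blood lineage and cell division markers, and FK set 3 was the nearest to WT.

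The log2 changes in FK over WT were -1.45 for ACAA1 (SE 0.47, adjusted p = 0.0935) and -1.33 for HSD17B4 (SE 0.49, adjusted p = 0.130). With FK set 3 left out they were -2.16 and -2.14 (adjusted p = 0.000939 and 0.000810), and 12 of the 13 peroxisomal genes were called lower (16.2% of all genes in that fit). Without FK sets 1 and 2 they were -0.65 and -0.48, in a fit where FK set 3 alone stood for FK. By set, the median deviation of the 13 genes from the WT mean of log2(CPM + 1) was 0.17, -0.15 and -0.03 in FA, -1.78, -1.78 and -0.34 in FK, and -0.03, 0.08 and -0.06 in WT. EHHADH in FK set 3 (148 CPM) lay further below WT than the median of its list in that set. DESeq2 called 6 of the 13 lower (6.42% of the genes it tested), and limma-voom with the set as a random block called 12 (11.4%).

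PPARA itself had 298, 363 and 393 CPM in FA, 179, 164 and 349.7 CPM in FK, and 326, 312 and 313 CPM in WT. FK sets 1 and 2 were the lowest of the 9, and FK set 3 lay above every WT set. The log2 change was -0.46 in FK over WT (SE 0.32, interval -1.17 to 0.26, adjusted p = 0.385), 0.15 in FA over WT (SE 0.32, adjusted p = 0.922) and 0.60 in FA over FK (SE 0.32, interval -0.11 to 1.32, adjusted p = 0.299). Without FK set 3 the change in FK over WT was -0.90 (adjusted p = 0.0107) and in FA over FK 1.05 (adjusted p = 0.00535). Without FK sets 1 and 2 they were 0.11 (adjusted p = 0.865) and 0.04 (adjusted p = 0.993).

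Of the 11 tested genes on the list of PPARA and its partners, 1 rose and 1 fell in FK over WT (3.04% and 1.73% of all genes tested did). PPARGC1A, a coactivator of PPARA that is induced by fasting, had 19.0, 17.1 and 18.5 CPM in FA, 37.3, 29.1 and 23.5 CPM in FK, and 9.90, 9.89 and 14.9 CPM in WT. The order was FK above FA above WT with no overlap of sets. It rose in FK over WT, with a log2 change of 1.37 (SE 0.24, adjusted p = 0.0314), and FA over WT was 0.65 (SE 0.23, adjusted p = 0.396). The call ended when any set other than FK set 3 was left out (adjusted p = 0.0525 to 0.139) and when the FA sets were left out of the fit (0.0965), and stood at 0.000975 without FK set 3.

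LPIN1, a phosphatidate phosphatase that also acts as a coactivator of PPARA, had 29.1, 34.4 and 39.0 CPM in FA, 15.6, 14.2 and 27.5 CPM in FK, and 86.6, 33.6 and 69.4 CPM in WT. All FK sets lay below all WT sets. It fell in FK over WT, with a log2 change of -1.73 (SE 0.38, adjusted p = 0.0442), again a call that ended without any set other than FK set 3 (adjusted p = 0.0709 to 0.161, and 0.00257 without FK set 3) and when the FA sets were left out of the fit (0.118). The change of LPIN1 in FA over WT was -0.89 (SE 0.37, adjusted p = 0.469). PPARA had no such separation from WT in either group, while PPARGC1A and LPIN1, named because they were called, did in FK. Of the 11 genes on the list, 1 had all FK sets above WT and 2 had them below. Such separations were found in 13.9% and 13.4% of all genes tested.

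Further genes that PPARA is known to control in other mammals were read from a list of 10, of which 9 were tested. G0S2, an inhibitor of the lipase that releases fatty acids from droplets, was the pathway gene called in both comparisons with WT. It had 7.66, 5.61 and 9.64 CPM in FA, 3.74, 5.64 and 2.37 CPM in FK, and 78.6, 84.5 and 46.2 CPM in WT. Its log2 change was -4.15 in FK over WT (SE 0.41, adjusted p = 0.00449) and -3.19 in FA over WT (SE 0.39, adjusted p = 0.0241). In FK over WT the call held in each fit that left out a set (adjusted p = 0.000164 to 0.0359). In FA over WT it held without FK set 2 (0.0193) or FK set 3 (0.00232) and ended without any other set (0.0556 to 0.187).

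PLIN2, a coat protein of lipid droplets chosen after its values were seen, had 17.0, 20.5 and 21.4 CPM in FA, 174, 185 and 20.6 CPM in FK, and 19.8, 21.2 and 22.4 CPM in WT. It was high in FK sets 1 and 2 and at the level of the other sets in FK set 3. The log2 change in FK over WT was 2.58 (SE 0.65, adjusted p = 0.0544), 3.07 without FK set 3 (adjusted p = 1.9e-05) and -0.07 without FK sets 1 and 2 (adjusted p = 0.899).

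Uptake and activation of fatty acids come next in the path, with 11 of 12 listed genes tested. In FK over WT edgeR called 0 of them (4.77% of all genes). By unadjusted p under 0.05 there were 3 (26.9% of all genes), DESeq2 called 2 (17.5% of all genes) and limma-voom 5 (19.2%). All FK sets lay below all WT sets for 6 of the 11 and above them for 0 (13.4% and 13.9% of all genes tested). The median log2 change of the 11 was -0.41, with 4 positive and 7 negative. ACSL4, an acyl-CoA synthetase that prefers arachidonic acid, had 21.1, 9.43 and 13.8 CPM in FA, 379, 249.8 and 15.9 CPM in FK, and 24.6, 20.0 and 26.5 CPM in WT. ACSL1, the main acyl-CoA synthetase of the liver and chosen after its values were seen, had 162, 124 and 167 CPM in FA, 34.3, 49.2 and 122 CPM in FK, and 181, 202 and 165 CPM in WT. The 2 synthetases went opposite ways in FK sets 1 and 2, and in FK set 3 both lay below WT. In FK over WT the log2 change was 3.18 for ACSL4 (SE 0.89, adjusted p = 0.0676) and -1.41 for ACSL1 (SE 0.43, adjusted p = 0.0817). Without FK set 3 they were 3.71 (adjusted p = 0.000118) and -2.15 (adjusted p = 0.000389), and without FK sets 1 and 2 they were -0.60 (adjusted p = 0.506) and -0.61 (adjusted p = 0.339).

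CPT2, the inner membrane enzyme that moves the chain from carnitine back to CoA, had 24.1, 35.7 and 28.8 CPM in FA, 58.6, 75.1 and 24.3 CPM in FK, and 40.5, 37.8 and 38.2 CPM in WT. FK sets 1 and 2 were above and FK set 3 was below all WT sets, and the 3 FA sets were below WT as well. Its log2 change was 0.44 in FK over WT (SE 0.36, interval -0.37 to 1.25, adjusted p = 0.462), -0.39 in FA over WT (SE 0.36, interval -1.20 to 0.42, adjusted p = 0.774) and -0.83 in FA over FK (SE 0.36, interval -1.65 to -0.02, adjusted p = 0.221). Leaving out FK set 3 gave 0.77 in FK over WT (adjusted p = 0.0202) and -1.16 in FA over FK (adjusted p = 0.00285). Leaving out FK sets 1 and 2 turned both round, to -0.71 (adjusted p = 0.260) and 0.32 (adjusted p = 0.931).

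Of the 9 genes on the carnitine shuttle list, 7 were tested and 1 was called in FK over WT (4.77% of all genes tested were). SLC25A20, the carrier that exchanges acylcarnitine for carnitine, had 64.3, 72.0 and 82.2 CPM in FA, 99.5, 110.3 and 57.3 CPM in FK, and 81.6, 95.6 and 73.2 CPM in WT, with a log2 change of 0.09 in FK over WT (SE 0.26, adjusted p = 0.850). As for CPT2, FK sets 1 and 2 were above all WT sets and FK set 3 below them. ACACB makes malonyl-CoA, which blocks the entry of fatty acids into mitochondria, and it had 317, 368 and 547 CPM in FA, 63.4, 133 and 177 CPM in FK, and 750.1, 621 and 478 CPM in WT. All 3 FK sets were below every FA and WT set. ACACB fell in FK over WT, with a log2 change of -2.31 (SE 0.42, adjusted p = 0.0350), and was -0.59 in FA over WT (SE 0.40, adjusted p = 0.676). The call ended without any set other than FK set 3 (adjusted p = 0.0572 to 0.1402) and when the FA sets were left out of the fit (0.0933), and was 0.00154 without FK set 3.

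Mitochondrial oxidation itself had 17 listed genes, all tested, and none was called in FK over WT by edgeR (4.77% of all genes were). At unadjusted p under 0.05 there were 3 (26.9% of all genes), DESeq2 called 1 (17.5% of all genes) and limma-voom 5 (19.2%). The median log2 change of the 17 was 0.05, the same as over all genes tested. Medians by set lay between -0.05 and 0.20 in FA and FK on the scale of log2(CPM + 1) from the WT mean, where the peroxisomal median was -1.78 in FK sets 1 and 2.

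ACADVL, the dehydrogenase that opens the cycle for very long chains, had 149, 152 and 166 CPM in FA, 161, 167 and 122 CPM in FK, and 174, 192 and 153 CPM in WT. The sets of all 3 groups overlapped. Its log2 change was -0.21 in FK over WT (SE 0.20, interval -0.67 to 0.26, adjusted p = 0.546), -0.15 in FA over WT (SE 0.20, interval -0.62 to 0.31, adjusted p = 0.860) and 0.06 in FA over FK (SE 0.20, interval -0.41 to 0.52, adjusted p = 0.897). All bounds of these intervals lay within 0.67 log2 units of 0.

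ACADM, the dehydrogenase for chains of medium length, had 278, 169.6 and 349 CPM in FA, 100.1, 85.9 and 197 CPM in FK, and 316, 355 and 366 CPM in WT. All FK sets lay below all WT sets, with FK set 3 between FK sets 1 and 2 and WT. FA was spread from within the FK range to the WT range. The log2 change in FK over WT was -1.44 (SE 0.38, interval -2.30 to -0.57), and it missed the threshold with adjusted p = 0.0611. Without FK set 3 it was -1.91 (adjusted p = 0.00194), without FK sets 1 and 2 it was -0.84 (adjusted p = 0.357), and DESeq2 called it with all sets at -1.45 (adjusted p = 0.00323). In FA over WT the change was -0.38 (SE 0.38, adjusted p = 0.796), and in FA over FK 1.06 (SE 0.38, interval 0.20 to 1.91, adjusted p = 0.161).

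HADHA, the alpha subunit of the trifunctional protein that carries out the later steps for long chains, had 155, 141 and 160.4 CPM in FA, 201, 245 and 153 CPM in FK, and 137, 147 and 134 CPM in WT. All FK sets lay above all WT sets, though FK set 3 by little. The log2 change was 0.52 in FK over WT (SE 0.22, interval 0.02 to 1.01, adjusted p = 0.172), 0.12 in FA over WT (SE 0.22, adjusted p = 0.900) and -0.39 in FA over FK (SE 0.22, adjusted p = 0.324). Without FK set 3 the change in FK over WT was 0.65 (adjusted p = 0.0271), and without FK sets 1 and 2 it was 0.10 (adjusted p = 0.853). HADHB, the beta subunit of the same protein, had 101, 105 and 61.2 CPM in FA, 167, 78.7 and 66.2 CPM in FK, and 87.8, 63.0 and 119.9 CPM in WT. Its sets overlapped throughout, and the log2 change in FK over WT was 0.20 (SE 0.40, adjusted p = 0.783).

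The steps beside these members had small fitted changes in FK over WT. HADH, the dehydrogenase for shorter chains, had 382, 407 and 383 CPM in FA, 370.0, 353 and 399 CPM in FK, and 313, 352 and 330.1 CPM in WT, a log2 change of 0.17 in FK over WT (SE 0.21, adjusted p = 0.630). ACAA2, the mitochondrial thiolase, had 631, 433 and 553 CPM in FA, 588, 558 and 419.6 CPM in FK, and 436, 561 and 513 CPM in WT, a change of 0.05 (SE 0.27, adjusted p = 0.923). The mitochondrial gene with the smallest p beside the members was ACAD9, a dehydrogenase that also helps to assemble complex I, with 14.5, 15.1 and 16.6 CPM in FA, 21.1, 30.8 and 14.7 CPM in FK, and 15.3, 12.7 and 13.6 CPM in WT. Its change in FK over WT was 0.68 (SE 0.25, adjusted p = 0.131), with the high values in FK sets 1 and 2. The small changes of SLC25A20, HADHB, HADH and ACAA2 in FK over WT turned negative when the sets were scaled to the hepatocyte markers. With APOA1, which rose in FK, taken out of those markers, they kept their positive sign (0.23 for SLC25A20).

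DECR1, the reductase for unsaturated chains, was chosen after its values were seen as a mitochondrial gene with all FA sets and all FK sets above WT, separations found in 12.5% and 13.9% of all genes tested. It had 160.1, 114 and 161 CPM in FA, 109, 119 and 139 CPM in FK, and 85.1, 87.3 and 101 CPM in WT. The log2 change was 0.67 in FA over WT (SE 0.21, adjusted p = 0.341) and 0.43 in FK over WT (SE 0.21, adjusted p = 0.228). Among the 18 genes of the citric acid cycle, which takes up the acetyl-CoA, the median log2 change in FK over WT was 0.16. For these genes edgeR called 0 (4.77% of all genes), DESeq2 0 (17.5%) and limma-voom 1 (19.2%). An unadjusted p under 0.05 was found for 0 (26.9% of all genes).

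Oxidation from the far end of the chain, called omega oxidation, had 4 tested genes. In FK over WT edgeR called 0 (4.77% of all genes), DESeq2 0 (17.5%) and limma-voom 2 (19.2%). An unadjusted p under 0.05 was found for 0 (26.9% of all genes). ALDH3A2, which oxidises fatty aldehydes, had 220.5, 221 and 212 CPM in FA, 87.8, 86.3 and 196 CPM in FK, and 194, 195 and 199.7 CPM in WT. FK sets 1 and 2 stood well below all other sets and FK set 3 was within the WT range. The log2 change was -0.67 in FK over WT (SE 0.32, adjusted p = 0.220).

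**Figure D3:**
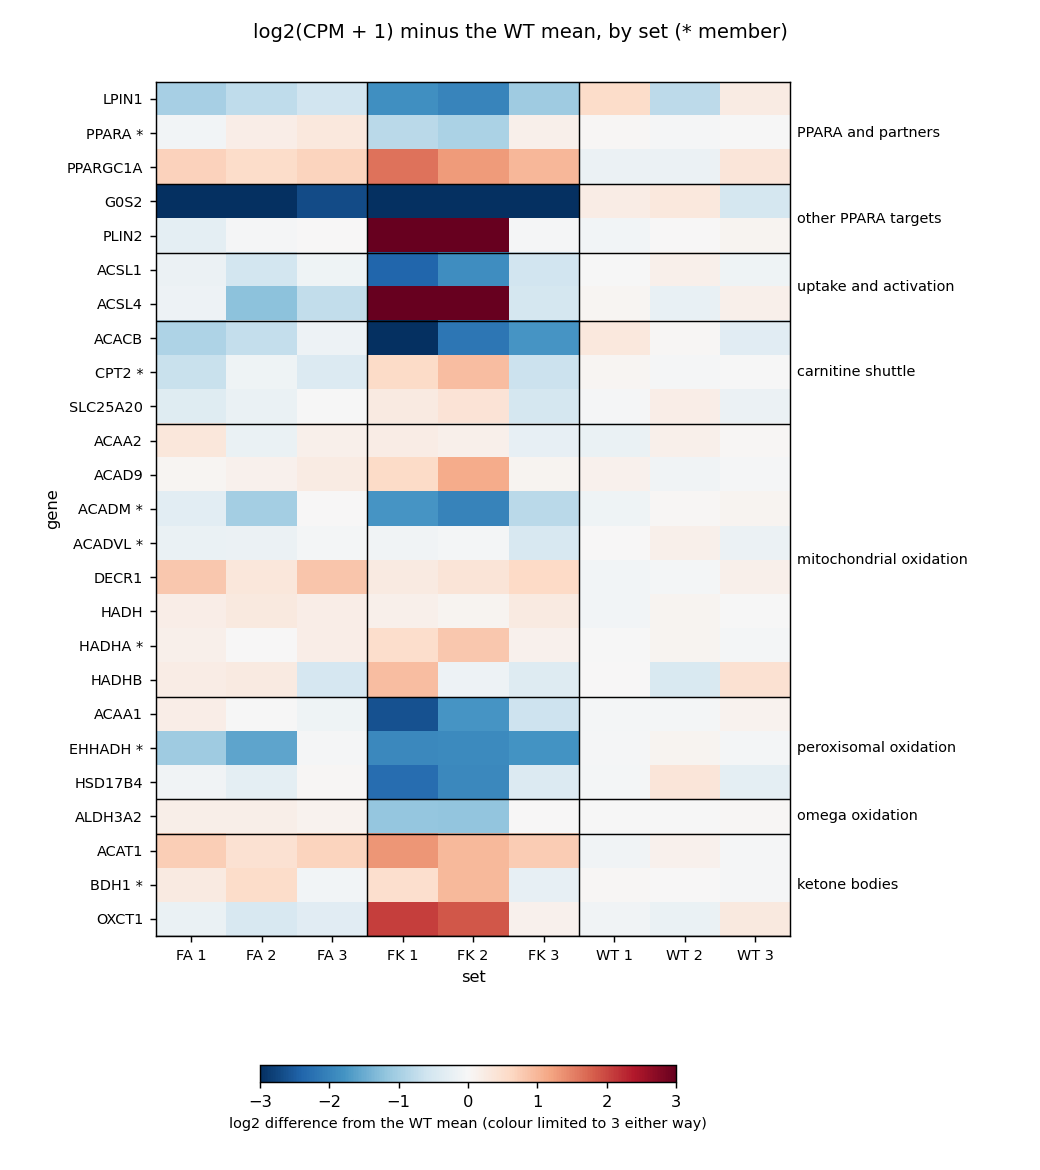
Difference of log2(CPM + 1) from the WT mean for the 25 pathway genes named in the text (rows, by list) in the 9 sets (columns, FA, FK, WT), with colours limited to 3 either way. Asterisks mark the 7 chosen genes. The peroxisomal genes are blue in FK sets 1 and 2, where the medians of all 13 on that list are -1.78, and EHHADH is blue in FK set 3 as well, while the mitochondrial genes are mixed.

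Ketone bodies are made from acetyl-CoA, and ACAT1 and BDH1 act at the start and the end of that path. BDH1, which turns acetoacetate into beta-hydroxybutyrate, had 135, 165 and 105 CPM in FA, 159, 221 and 93.8 CPM in FK, and 114, 112 and 109.6 CPM in WT. FK sets 1 and 2 lay above and FK set 3 below all WT sets, and FA spanned the WT range. Its log2 change was 0.50 in FK over WT (SE 0.31, interval -0.21 to 1.21, adjusted p = 0.339), 0.27 in FA over WT (SE 0.31, interval -0.44 to 0.98, adjusted p = 0.829) and -0.22 in FA over FK (SE 0.31, adjusted p = 0.701). Leaving out FK set 3 gave 0.74 in FK over WT (adjusted p = 0.0417), and leaving out FK sets 1 and 2 gave -0.29 (adjusted p = 0.655).

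ACAT1, the thiolase that joins acetyl-CoA units, had 416, 342 and 399 CPM in FA, 631, 495 and 423 CPM in FK, and 232, 275 and 243 CPM in WT. The groups stood in the order FK, FA, WT with no overlap. ACAT1 rose in FK over WT, with a log2 change of 1.04 (SE 0.25, adjusted p = 0.0492), the 1 call among 9 ketone body genes (3.04% of all genes were called higher), and FA over WT was 0.62 (SE 0.24, adjusted p = 0.437). The call was at the edge of the threshold: it ended without any set other than FK set 3 (adjusted p = 0.0724 to 0.179, and 0.00383 without FK set 3) with RLE size factors (0.0513), scaled to hepatocyte markers (0.119, and 0.0525 without APOA1 among them), with no filter on low counts (0.0626) and when the FA sets were left out of the fit (0.126).

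OXCT1, the enzyme by which other organs use ketone bodies and which hepatocytes largely lack, was chosen after its values were seen. It had 4.78, 3.81 and 4.27 CPM in FA, 27.2, 23.4 and 6.27 CPM in FK, and 5.17, 4.82 and 7.21 CPM in WT. The high values were in FK sets 1 and 2, the sets with 874 and 2264 CPM of erythroid and 1197 and 2059 CPM of neutrophil markers. Which cells the OXCT1 counts came from was not tested. The log2 change in FK over WT was 1.72 (SE 0.47, adjusted p = 0.0642), 2.12 without FK set 3 (adjusted p = 0.000201) and 0.10 without FK sets 1 and 2 (adjusted p = 0.900).

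**Figure D4:**
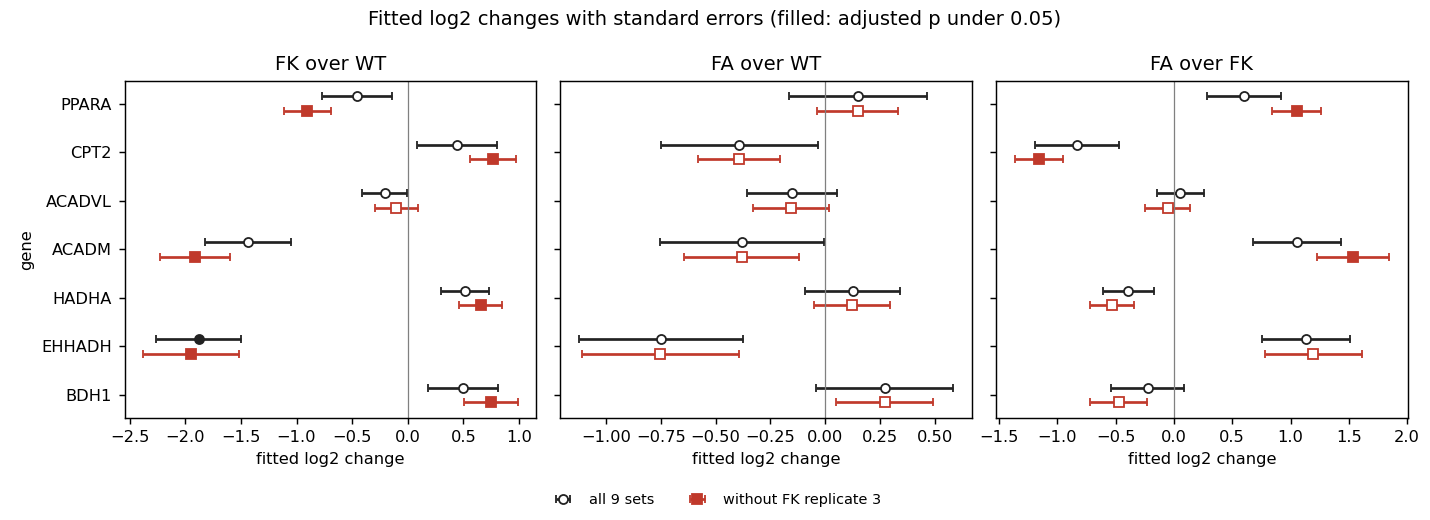
Fitted log2 changes (bars are standard errors) of the 7 genes in FK over WT, FA over WT and FA over FK, with all 9 sets (circles) and without FK set 3 (squares). Filled symbols passed an adjusted p under 0.05. EHHADH is the filled circle, at -1.88, and 6 squares are filled in FK over WT.

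Taking all 81 tested pathway genes, members included, 2 were called higher and 4 lower in FK over WT: PPARGC1A and ACAT1 rose, and EHHADH, ACACB, LPIN1 and G0S2 fell. The median log2 change was -0.21, against 0.05 over all genes tested. Of all genes 4.77% were called. An unadjusted p under 0.05 was found for 25 of the 81 and for 26.9% of all genes, so that count was near the background. All 3 FK sets lay below WT for 23 of the 81 and above it for 6, where 13.4% and 13.9% of all genes did so.

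In FA over WT edgeR called 0 of the 7 genes, and 0 had an unadjusted p under 0.05. The share of all genes called was 0.167%, and 0.0736% were called lower. DESeq2 called 0 of the 7 (2.38% of the genes it tested), and limma-voom called 1 (3.44%), EHHADH, with a log2 change of -0.90 (adjusted p = 0.0130). CPT2 was the member whose FA sets all lay below WT, a separation found in 12.4% of all genes. Of the 81 pathway genes G0S2 was called, 10 had an unadjusted p under 0.05 (10.2% of all genes did), and the median log2 change was -0.10, against 0.00 over all genes tested.

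In FA over FK edgeR called 0 of the 7 genes, 0 of the 81 pathway genes and 0% of all genes. Unadjusted p was under 0.05 for 3 of the 7 (CPT2, ACADM and EHHADH), for 27 of the 81 and for 21.9% of all genes tested. DESeq2 called 1 of the 7, EHHADH (log2 change 1.15, adjusted p = 0.0331), where it called 11.7% of the genes it tested, and limma-voom called 5 (17.0%). With FK set 3 left out edgeR called 3 of the 7, with PPARA and ACADM higher and CPT2 lower in FA, where 34.5% of all genes were called. EHHADH was the member with no overlap of FA and FK sets, a separation of that direction found in 8.24% of all genes. The 3 comparisons share groups, so their values for a gene are not independent.

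Within sets the 4 libraries gave close values. The counts behind a library's value ran from 291 for CPT2 to 8881 for EHHADH, and the coefficient of variation within a set was at most 16.8%, for ACADM in FK set 2. Between sets of a group the spread was often larger. EHHADH averaged 304 ± 175 CPM in FA, 139 ± 7.8 CPM in FK and 511 ± 26 CPM in WT (SD, n = 3 each). PPARA averaged 351 ± 49 CPM in FA, 231 ± 103 CPM in FK and 317 ± 8.3 CPM in WT (SD, n = 3 each). WT was the tightest group for 5 of the 7 genes by SD.

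Across the 9 sets, ACADM and EHHADH varied alike, with Pearson's r of 0.90 for log2(CPM + 1) and 0.94 in the 7 sets without FK sets 1 and 2. PPARA was opposed to HADHA, with r = -0.87 over 9 sets, but 0.36 over those 7. PPARA and ACADM had r = 0.80 over 9 sets and -0.33 over the 7. The 9 points share the contrast of FK sets 1 and 2 with the rest, so these r are descriptions of these sets. Among 6724 genes with a mean of at least 10 CPM, KDM1B was the most like PPARA (r = 0.99 over 9 sets and 0.95 over 7), and others high on that ranking were DPYS (0.98 and 0.72 over the same sets), ST6GAL1 (0.98 and 0.63) and ENTPD5 (0.98 and 0.88). The genes most like the mean of the 7 members, searched among 6718, were RPL23A (0.96 over 9 sets and 0.96 over 7), CHCHD1 (0.94 and 0.96), ADPRHL2 (0.90 and 0.92), NGDN (0.89 and 0.91) and DRG1 (0.88 and 0.89). Between members r ran from -0.87 (PPARA and HADHA) to 0.90 (ACADM and EHHADH) over the 9 sets. Opposed members cancel in their mean, so likeness to it is not likeness to any single member.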

How the data were processed

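RNA sequencing of rabbit liver gave 1 table for 36 libraries. Its values are estimated counts per gene, whole numbers as deposited by the authors, and Salmon 0.14.1 is named in the submitters' processing notes. The sources used here do not give its role, the genome build, the rounding or the strand setting, so genes that overlap or resemble each other are uncertain. Of the 8019 genes with only a LOC identifier, 701 took a symbol from RefSeq (assembly mOryCun1.1, used for names alone).

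The 4 libraries of a set were summed and all 9 sets entered 1 edgeR fit (version 4.0.16 in R 4.3.3) after filterByExpr and TMM scaling, with quasi-likelihood F tests and Benjamini-Hochberg adjustment over 14939 genes. There were 6 residual and 2.89 prior degrees of freedom, and the biological coefficient of variation was 45.2%. Set totals were 62.4 to 78.6 M counts in FA, 53.2 to 61.9 M in FK and 61.0 to 67.4 M in WT. Pearson's r of log2 CPM between libraries was 0.980 to 0.990 within sets. CPM values are the counts per 1 M after TMM scaling. The procedure was tested on simulated data.

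The 7 genes and the pathway and marker lists were chosen with earlier results of these data known. Named were FAH, the members, 7 steps beside them, and per list up to 4 called genes or, with none called, that with the smallest p in FK over WT. Some genes that this rule picks are not reported here. OXCT1, PLIN2, ACSL1 and DECR1 were chosen after their values were seen. The genes most like PPARA and the members' mean were ranked by Pearson's r of log2(CPM + 1) among genes with a mean of at least 10 CPM.

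Alternatives were DESeq2 1.42.0, RLE size factors, scaling to 14 hepatocyte markers, no filter, at least 1 CPM in 3 sets, a fit of the 2 groups compared, 36 libraries as replicates, limma-voom (limma 3.58.1) with the set as a random block (estimated correlation 0.791), the set number as a block, and each set left out. Scaling without APOA1, which rose in FK, and leaving out FK sets 1 and 2 were added after seeing the data. Figures were drawn with matplotlib 3.10.9.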

Additional observations from a re-analysis of the deposited data

How the results depend on the processing

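Of 1560 alternative values of named genes, 1341 kept their direction and their side of the threshold, 114 passed it only under the alternative, 64 no longer passed it and 41 changed sign. For FK over WT, 1 of the 7 genes was called, against 2 with DESeq2, 7 with 36 libraries as replicates, 4 with limma-voom, 0 with the set number as a replicate block and 0 without FK sets 1 and 2, and 0 to 6 with a set left out. Of the pathway genes 6 were called, against 18, 64, 36, 1 and 1 under the same alternatives, 2 in a fit of the 2 groups, and 1 to 43 with a set left out. For FA over WT, 0 of the 7 were called, against 1 with 36 libraries and 1 with limma-voom, and 1 pathway gene, against 3 with DESeq2, 2 in the fit of the 2 groups, 32 with 36 libraries, 7 with limma-voom, 0 with the block and 0 to 3 with a set left out. For FA over FK, 0 of the 7 and 0 pathway genes were called, against 1 and 8 with DESeq2, 5 and 57 with 36 libraries, 5 and 36 with limma-voom, and 0 to 3 and 0 to 41 with a set left out. The highest counts with a set left out, of FK over WT, pathway FA over WT and FA over FK, were those without FK set 3. Over all genes, 712 were called in FK over WT, against 2591 with DESeq2, 2448 with limma-voom, 43 in the fit of the 2 groups, 77 without FK sets 1 and 2, and 459 scaled to hepatocyte markers (206 higher and 253 lower, where the count of 712 held 454 higher and 258 lower), and 22 to 5396 with a set left out. In FA over WT 25 were called, against 352, 440 and 235 under the first 3 of these and 2 to 247 with a set left out, and in FA over FK 0, against 1691, 2169 and 0, and 0 to 5324. The cause of these shifts was not tested, beyond the use of more replicates in the fit of 36 libraries. The limma-voom fit also took the 36 libraries singly, with 1 correlation of 0.791 within sets for all genes.

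Same-numbered sets shared little: the correlations of their deviations from group means ran from -0.14 to 0.14, and 3 of 9 sets correlated best with their own number, so the numbers were not taken as pairs. With the number as a replicate block the calls of EHHADH, PPARGC1A, LPIN1, ACACB and ACAT1 in FK over WT ended (adjusted p = 0.0887, 0.0824, 0.0859, 0.0824 and 0.114), as did that of G0S2 in FA over WT (0.113), while G0S2 in FK over WT kept its call (0.0287). Scaling to hepatocyte markers shifted the median of all genes by -0.22 in FK over WT, -0.11 in FA over WT and 0.11 in FA over FK, and without APOA1 by 0.11, -0.04 and -0.15.

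Without FK sets 1 and 2, FK over WT changed sign for CPT2 (-0.71), BDH1 (-0.29), PPARA (0.11), SLC25A20 (-0.58), HADHB (-0.48), ACAA2 (-0.30), ACSL4 (-0.60) and PLIN2 (-0.070), and FA over FK for CPT2 (0.32), HADHA (0.025), BDH1 (0.56), SLC25A20 (0.38), HADHB (0.46) and ACAD9 (0.10). Scaled to hepatocyte markers, FK over WT did so for SLC25A20 (-0.15), HADHB (-0.044), HADH (-0.046) and ACAA2 (-0.18), and FA over WT for ACAA1 (-0.079). Without APOA1 among them, FA over FK did so for ACADVL (-0.10), HADH (-0.079) and ACAA2 (-0.10), and FA over WT for ACAA1 (-0.0065). With a set left out, signs changed within these ranges: ACADVL (-0.052 to 0.15), BDH1 (-0.47 to 0.10), HADHB (-0.44 to 0.30) and ACAA2 (-0.070 to 0.19) in FA over FK; SLC25A20 (-0.089 to 0.31), HADHB (-0.32 to 0.43) and ACAA2 (-0.055 to 0.17) in FK over WT; and HADHB (-0.22 to 0.23), ACAA2 (-0.033 to 0.23), ACAA1 (-0.074 to 0.10) and HSD17B4 (-0.29 to 0.053) in FA over WT. None of these sign changes was a call in either fit.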
